A study of Mus musculus with 18 samples.

Results

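Transcripts of 8 neuropeptide receptors were followed by RNA sequencing in mouse dorsal root ganglia, which hold the cell bodies of the sensory neurons of the body. The 8 genes were Cckbr, Gpr151, Galr1, Galr2, Npy1r, Npy2r, Npy5r and Adcyap1r1, taken by gene symbol. Of these, 7 were among the 15730 genes of the deposited count table, and Galr2 was found only among the 45904 features of the FPKM table (a level corrected for transcript length and library size). Cckbr was chosen because it was high in an earlier comparison of SNA_Saline with Sham_Saline, and Gpr151 because it was high in an earlier comparison of Sham_H2O2 with Sham_Saline. All values of the 8 receptors from those 2 comparisons are therefore given as a description, with no test. Other listed genes, also chosen with earlier results of these data known, were tested in SNA_Saline against Sham_Saline.

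The ganglia were those of the sciatic nerve (L4 to L6) of C57BL/6 mice aged 6 to 8 weeks, collected 24 hours after surgery. Each of the 18 samples was a pool from 2 mice, with 3 samples in each of 6 groups. LAM was laminectomy alone, the opening of the vertebral bone. DCA was a spinal injury to the dorsal columns, where the central branches of these neurons ascend. Sham_Saline was the sham operation with saline, and Sham_H2O2 the sham operation with 13 mM hydrogen peroxide, an oxidant. SNA_Saline was injury of the sciatic nerve, which holds the peripheral branches, with saline, and SNA_NAC the same injury with 30 mM N-acetyl-cysteine, a thiol antioxidant. No group combined sciatic injury with peroxide, and none combined a sham operation with N-acetyl-cysteine.

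Neuropeptide receptors are G protein-coupled receptors: a peptide released from a nerve cell binds the receptor on the same or a neighbouring cell, and the receptor passes the signal to a G protein inside. Receptors coupled to Gi, such as those for neuropeptide Y and Galr1 for galanin, lower cyclic AMP and tend to quiet a neuron, whereas Gs and Gq receptors raise cyclic AMP or release calcium. In sensory ganglia the peptides galanin, neuropeptide Y and PACAP are known for their change after a peripheral axon is cut, and their receptors sit on sensory neurons, on their spinal targets or on both.

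Total counts per sample ran from 6472476 to 42435331, with a median of 17481263. All 10 sensory neuron markers were in the count table, with a summed level of 6700 to 11000 CPM (the count scaled for library size, after TMM normalization). Schwann cell markers (6 of 6) summed to 6320 to 10400 CPM, satellite glia markers (7 of 7) to 2390 to 3410 CPM, and macrophage markers (7 of 8) to 46.7 to 81.2 CPM. Skeletal muscle markers (7 of 7), which do not belong to a ganglion, ranged from 6.31 to 1190 CPM, with both extremes in Sham_Saline. Of 6 spinal cord and brain markers 2 were in the count table, and Olig2, Mog, Gad2 and Chat were not. The 2 present were Gfap, at 0.953 to 6.84 CPM, and Slc17a7, at 66.9 to 163 CPM. The cells their reads came from were not tested. These are whole ganglia, so fewer cells of a type and less RNA per cell cannot be told apart in any of the values that follow.

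On the FPKM scale, which allows genes to be compared with each other, Npy1r had the highest median level over the 18 samples, 13.0 FPKM. Npy2r followed with 9.08 and Gpr151 with 4.34 FPKM. Adcyap1r1 at 0.751, Galr1 at 0.661, Cckbr at 0.349, Npy5r at 0.313 and Galr2 at 0.149 FPKM were low. The median hides the spread of a pair of genes: Cckbr ran from 0.0293 to 2.89 FPKM and Gpr151 from 0.945 to 21.6 FPKM across samples, while Npy2r stayed between 6.75 and 11.4 FPKM.

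**Figure D1:**
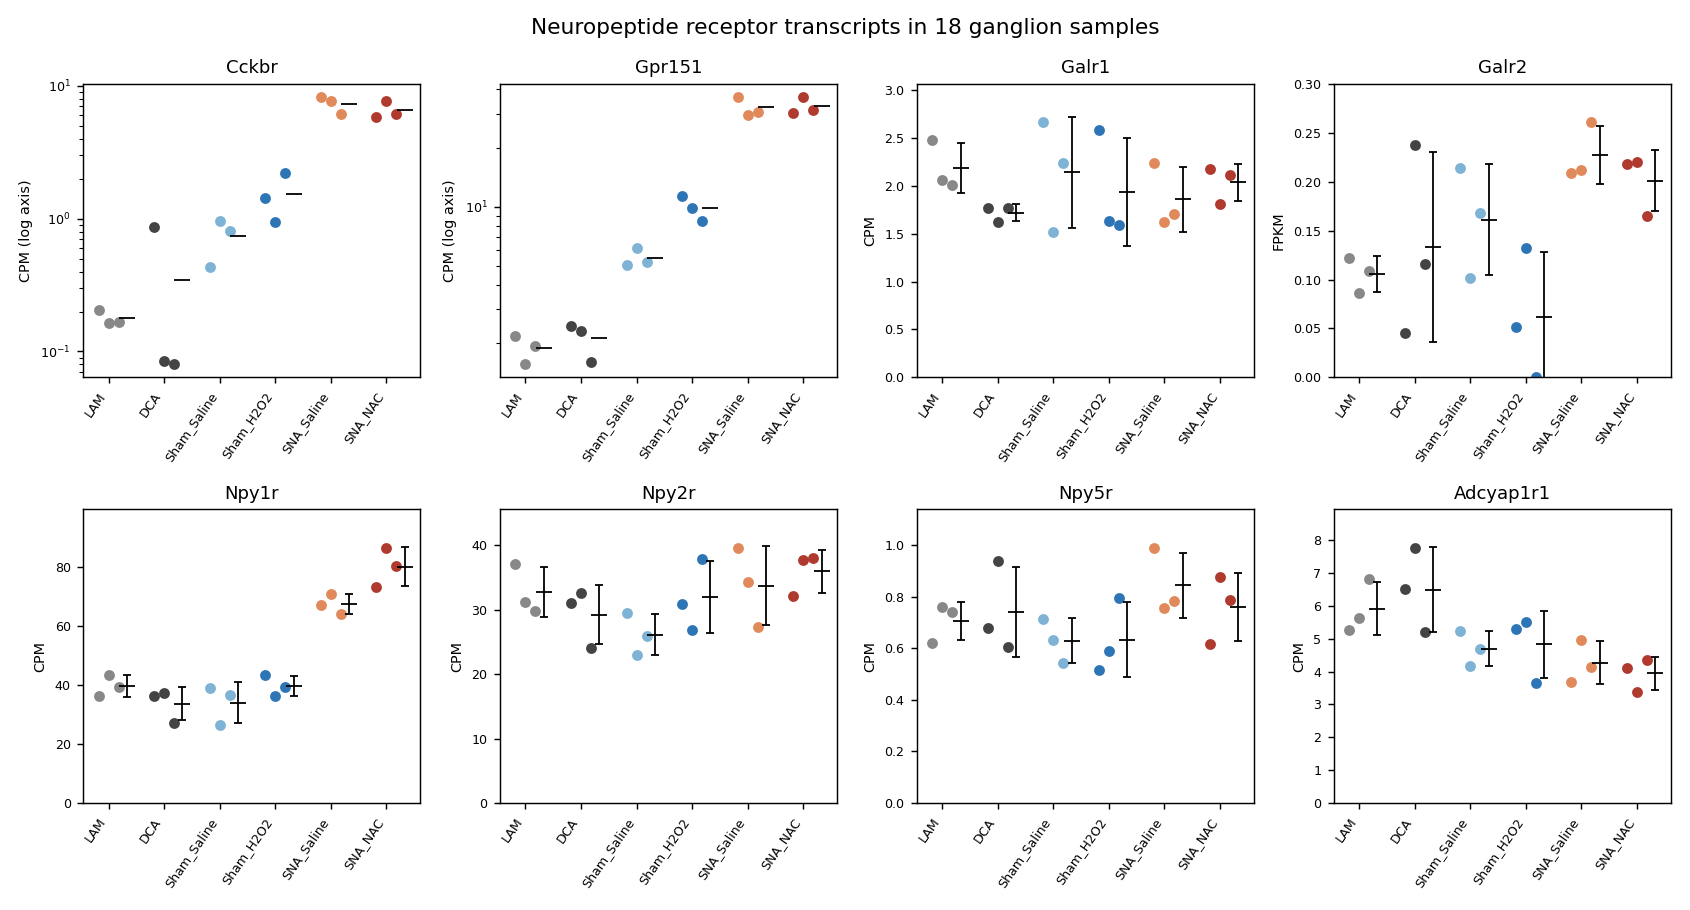
Level of each receptor in each of the 18 samples, in CPM (FPKM for Galr2), with 1 dot per sample and 3 dots per group; the black tick is the group mean and the bars its SD, except on the log axes of Cckbr and Gpr151, which carry the mean only, and the Galr2 bar of Sham_H2O2 is clipped at 0. Cckbr, Gpr151 and Npy1r were highest in both sciatic injury groups, with no overlap with the other 4 groups. The share of all genes with this separation was not counted.

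Cckbr (ENSMUSG00000030898) encodes the CCK-B receptor, which binds cholecystokinin and gastrin. It was nearly absent from the libraries of both spinal surgery groups. In LAM it had 2, 3 and 5 counts, or 0.207, 0.163 and 0.168 CPM. In DCA it had 23, 1 and 2 counts, or 0.867, 0.0854 and 0.0806 CPM, so that 1 library held most of the group's signal. The Sham_Saline samples had 0.429, 0.969 and 0.814 CPM, and the Sham_H2O2 samples 1.42, 0.951 and 2.22 CPM. After sciatic injury the level was 8.25, 7.67 and 6.13 CPM with saline and 5.88, 7.70 and 6.14 CPM with N-acetyl-cysteine. The 6 injured samples all lay above the other 12, and the gap in the order of group means was between Sham_H2O2 (1.53 ± 0.644 CPM, SD, n = 3) and SNA_NAC (6.57 ± 0.983 CPM). All other neighbours in that order overlapped. How many of all genes separate the 6 injured samples from the other 12 was not counted, and Cckbr was chosen for its level in SNA_Saline.

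The Cckbr gene lies on chromosome 7, from 105425731 to 105470898 on the plus strand (GENCODE M21, mouse build GRCm38/mm10). The 250 bases before its RefSeq start (build GRCm38.p6) are shown because Cckbr had the widest range of levels among the receptors, and hold no exon. They were searched on both strands, with those of every gene in the RefSeq promoter table, for motifs of 3 factor families active in injured neurons: AP-1 (TGANTCA), CRE (TGACGTCA) and STAT (TTCNNNGAA). None of the 3 occurred in the Cckbr window.
Cckbr upstream window, chr7:105425481-105425730, plus strand: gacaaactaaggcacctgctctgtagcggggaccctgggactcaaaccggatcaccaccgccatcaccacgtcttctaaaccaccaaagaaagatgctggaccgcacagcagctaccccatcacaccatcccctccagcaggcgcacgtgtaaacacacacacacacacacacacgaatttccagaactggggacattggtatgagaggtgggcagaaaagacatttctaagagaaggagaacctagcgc

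Gpr151 (ENSMUSG00000042816) encodes an orphan receptor related in sequence to the galanin receptors. Its groups were more clearly separated than those of Cckbr. The values were 2.17, 1.57 and 1.95 CPM in LAM and 2.45, 2.31 and 1.61 CPM in DCA. In Sham_Saline they were 5.05, 6.15 and 5.23 CPM, and in Sham_H2O2 11.4, 9.87 and 8.42 CPM. Sciatic injury with saline gave 36.4, 29.6 and 30.7 CPM, and with N-acetyl-cysteine 30.1, 36.5 and 31.3 CPM. LAM and DCA overlapped, as did both injured groups, and every other pair of neighbours in the order was separate.

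The galanin receptors proper had low levels. Galr1 (ENSMUSG00000024553), a Gi-coupled receptor, had group means from 1.72 ± 0.0869 CPM in DCA to 2.19 ± 0.259 CPM in LAM (SD, n = 3 each), and every neighbouring pair of groups overlapped. All DCA samples lay below all LAM and all SNA_NAC samples, a separation whose share among all genes was not counted. Galr1 counts were low, 10 to 92 per sample. Galr2 (ENSMUSG00000020793, chromosome 11, 116280939 to 116283938, plus strand), which couples to Gq, had FPKM values equal to whole multiples of what 1 read is worth, from 0 to 23 reads per sample. The LAM samples had 0.122, 0.0866 and 0.109 FPKM, the DCA samples 0.0457, 0.238 and 0.116, and the Sham_Saline samples 0.214, 0.102 and 0.169. Sham_H2O2 had 0.0518, 0.133 and 0 FPKM, SNA_Saline 0.209, 0.212 and 0.262, and SNA_NAC 0.218, 0.220 and 0.165. Neighbours in the order of means overlapped, but the samples of both sciatic injury groups lay above all Sham_H2O2 and LAM samples, on few reads. How many of all FPKM features show such a separation was not counted, so it has no background.

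The 3 receptors for neuropeptide Y and peptide YY differed from each other. Npy1r (ENSMUSG00000036437) encodes the Y1 receptor, a Gi-coupled receptor of small sensory neurons. It had 36.1, 43.4 and 39.2 CPM in LAM, and 36.1, 37.4 and 27.2 CPM in DCA. The sham samples had 39.1, 26.3 and 36.7 CPM with saline and 43.2, 36.3 and 39.2 CPM with peroxide. The injured samples had 67.2, 70.9 and 63.9 CPM with saline and 73.3, 86.5 and 80.4 CPM with N-acetyl-cysteine. The 4 uninjured or centrally injured groups overlapped, and SNA_NAC lay above SNA_Saline without overlap, as for 9.24% of all genes. Npy2r (ENSMUSG00000028004), the Y2 receptor, often found on axon endings, had group means from 26.1 ± 3.24 CPM in Sham_Saline to 36.0 ± 3.34 CPM in SNA_NAC. Npy5r (ENSMUSG00000044014), the Y5 receptor, had means from 0.630 ± 0.0860 CPM in Sham_Saline to 0.844 ± 0.127 CPM in SNA_Saline, on 4 to 26 counts per sample. For both genes every neighbouring pair of groups in the order overlapped. Further apart in the order, all Npy2r samples of LAM and of SNA_NAC lay above those of Sham_Saline, and the share of all genes doing so was not counted. For Npy5r all SNA_Saline samples lay above those of Sham_Saline, as for 10.3% of all genes.

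Of the summed FPKM of the 3 neuropeptide Y receptors, Npy1r held 56.9% ± 4.58 in LAM, 55.4% ± 0.416 in DCA, 58.3% ± 2.81 in Sham_Saline and 57.7% ± 4.08 in Sham_H2O2 (SD, n = 3 each). Its share was 68.6% ± 3.48 in SNA_Saline and 70.8% ± 0.937 in SNA_NAC, and the lowest injured sample, at 64.8%, lay above the highest of the other samples, at 60.7%. An exact two-sided permutation test over samples gave p = 0.1 for SNA_NAC against Sham_H2O2, the smallest that 3 against 3 allow, and p = 0.6 for DCA against LAM. The share and its tests were added after the values were seen.

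Npy1r and Npy5r are neighbours on chromosome 8 that are read in opposite directions. Npy5r spans 66679965 to 66688128 on the minus strand and Npy1r 66697192 to 66706792 on the plus strand, with 9063 bases between their 5′ ends (GENCODE M21). Their windows are shown because 1 neighbour moved with injury and the other did not pass a test. The Npy1r window held an AP-1 match at -231 from the RefSeq start, and of it only the 30 bases around the match are printed, with the match in capitals, because 230 of its 250 bases lie in a GENCODE exon. Of the 30 bases 10 are exonic, and the match itself spans the start of that exon. An AP-1 match occurred in 6.75% of the 32851 RefSeq windows of this length, a CRE match in 1.55% and a STAT match in 7.02%. The Npy5r window held none of the 3 motifs and is given without its exon bases. Those of Npy2r and Adcyap1r1 also held none, and that of Galr2 held a STAT match at -209. Windows were available for 6 of the 8 receptors, and Gpr151 and Galr1 were not searched. These matches describe letters only.
Npy1r, around the AP-1 match, chr8:66697172-66697201, plus strand: cttgtaaatgcgccttgctTGAGTCAagga
Npy5r upstream window, chr8:66688129-66688344, minus strand: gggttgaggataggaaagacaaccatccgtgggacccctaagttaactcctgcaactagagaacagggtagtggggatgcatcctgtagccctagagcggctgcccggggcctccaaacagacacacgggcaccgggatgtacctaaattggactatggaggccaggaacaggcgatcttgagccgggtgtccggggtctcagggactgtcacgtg

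Adcyap1r1 (ENSMUSG00000029778, chromosome 6, 55451978 to 55501451, plus strand) encodes PAC1, the Gs-coupled receptor for the peptide PACAP. Its means were lowest in both sciatic injury groups and highest after both spinal operations. The LAM samples had 5.28, 5.64 and 6.82 CPM, and the DCA samples 6.52, 7.77 and 5.20 CPM. Sham_Saline had 5.24, 4.17 and 4.68 CPM and Sham_H2O2 5.30, 5.52 and 3.65 CPM. The lowest means were those of SNA_Saline, with 3.70, 4.97 and 4.13 CPM, and SNA_NAC, with 4.10, 3.38 and 4.35 CPM. Neighbouring groups overlapped throughout, but no SNA_NAC sample reached the lowest LAM or DCA sample. Such a separation was seen for 15.1% of all genes against LAM and 12.3% against DCA.

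In the comparison from which Cckbr was chosen, SNA_Saline against Sham_Saline, the fitted level of Cckbr was 9.88-fold higher (log2 fold change 3.30, SE 0.453). Gpr151 was 5.87-fold and Npy1r 1.98-fold higher. Npy2r differed by 0.37, Npy5r by 0.42, Galr1 by -0.18 and Adcyap1r1 by -0.15 on the log2 scale. In 4 of the 7 genes, Cckbr, Gpr151, Npy1r and Npy5r, all SNA_Saline samples lay above all Sham_Saline samples, as they did for 10.3% of all 15730 genes. In the comparison from which Gpr151 was chosen, Sham_H2O2 against Sham_Saline, Gpr151 was 1.81-fold higher (log2 0.85, SE 0.169) without overlap, which held for 2.16% of all genes. Cckbr differed by a similar log2 value there, 0.91, but with overlapping samples and an SE of 0.532, and the other 5 differed by between -0.17 and 0.28.

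SNA_NAC against Sham_H2O2 set sciatic injury against a sham operation in samples other than those Cckbr was chosen from. The agent differed along with the injury, and Sham_H2O2 is shared with the comparison from which Gpr151 was chosen. Cckbr, Gpr151 and Npy1r rose, 3 of 7 receptors, and none fell, where 1% of all genes were called higher (edgeR quasi-likelihood test, Benjamini-Hochberg adjusted p under 0.05 over all genes). Gpr151 was 3.29-fold higher (95% interval 2.59 to 4.17, adjusted p = 4.09e-05) and Npy1r 2.03-fold higher (1.63 to 2.52, adjusted p = 0.00158). The Cckbr level was 4.68-fold higher (2.41 to 9.09, adjusted p = 0.0189). For each of the 3, all 3 injured samples exceeded all 3 shams, as for 12.2% of all genes. The Cckbr call was lost in edgeR without Sham_H2O2 replicate 1 (adjusted p = 0.0898) or 2 (0.157) and without SNA_NAC replicate 2 (0.0807) or 3 (0.0616), and in limma on log2(FPKM + 0.1) (0.062), with fold changes of the same direction.

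The other 4 receptors in the count table did not pass in that comparison. Their 95% intervals, as folds, ran from 0.758 to 1.55 for Galr1, 0.887 to 1.45 for Npy2r, 0.798 to 1.81 for Npy5r and 0.601 to 1.08 for Adcyap1r1. A doubling, as seen for Npy1r, lies outside the intervals of Galr1, Npy2r and Adcyap1r1. The Npy5r interval is narrower than its unadjusted edgeR p of 0.509 allows. With 4 to 13 counts in the Sham_H2O2 samples, a doubling of Npy5r cannot be called excluded. Galr2, tested with limma on log2(FPKM + 0.1) over all features, differed by 0.98 (SE 0.333, adjusted p = 0.525), and by 1.24 (adjusted p = 0.511) in edgeR on its recovered reads.

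LAM and DCA samples had no part in the choice of either gene. Cckbr was, however, chosen as high after the same sciatic injury with saline. Against LAM, SNA_NAC had higher Cckbr, Gpr151 and Npy1r, again 3 of 7, beside 2.81% of all genes called higher. Cckbr was 36.4-fold higher (95% interval 15.9 to 83.1, adjusted p = 2.24e-05), on the 10 counts that the LAM libraries held together. Gpr151 was 17.3-fold (13.2 to 22.8, adjusted p = 9.35e-10) and Npy1r 2.02-fold higher (1.63 to 2.51, adjusted p = 0.00043), all by edgeR. Adcyap1r1 differed by -0.59 (SE 0.192, adjusted p = 0.118) although its samples did not overlap. It passed in the fit of these 2 groups alone (adjusted p = 0.0253) and with offsets for GC share and length (0.00592).

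Against DCA, ganglia after peripheral injury with N-acetyl-cysteine were compared with ganglia of other mice after central injury. Which neurons each injury reached was not measured. The same 3 receptors of 7 rose, beside 3.48% of all genes, and Adcyap1r1 fell, beside 1.04% of all genes. Cckbr was 16.3-fold (8.02 to 33.1, edgeR adjusted p = 5.42e-05), Gpr151 15.4-fold (11.8 to 20.2, adjusted p = 1.78e-09) and Npy1r 2.39-fold higher (1.92 to 2.97, adjusted p = 4.59e-05). The log2 fold change of Cckbr was 4.03, and 6.18 without DCA replicate 1 (edgeR adjusted p = 3.73e-06). Adcyap1r1 fell by 0.70 on the log2 scale (SE 0.191, edgeR adjusted p = 0.0468). Its call sat at the threshold: a fit with replicate number as a block gave an adjusted p of 0.0766, with these 2 groups alone 0.0668, and leaving out any 1 of 5 of the 6 libraries (all but DCA replicate 3) gave 0.0973 to 0.197.

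DCA against LAM asked what central injury added to its own surgery. None of the 7 receptors passed, and 0 genes of the whole table were called by edgeR (0%), with 793 at an unadjusted p under 0.05 and 2 genes by DESeq2. Intervals as folds were 0.839 to 1.51 for Gpr151, 0.681 to 1.05 for Npy1r and 0.818 to 1.43 for Adcyap1r1. For Galr1 it was 0.572 to 1.13, although all its DCA samples lay below those of LAM. The Cckbr interval was wide, 0.755 to 6.6. Its fitted log2 fold change was 1.16 with all libraries and -1.03 without DCA replicate 1, neither past the threshold (adjusted p = 0.624 in each). That library also had 3.39 CPM of Sprr1a, a small proline-rich protein made by injured neurons, against 0.683 and 0.645 in the other 2. Npy had 0.792 CPM there against 0.342 and 0.322, and LAM replicate 3 had 0.705. Both genes were picked below for likeness to Cckbr over samples that include this library, so a shared high level is partly built in. Of the others so picked, Gpr151 had 2.45 CPM against 2.31 and 1.61, Pvr 13.9 against 13.2 and 11.5, and Tmem88b 1.55 against 1.28 and 1.33. DCA replicate 1 was not high in Atf3 (25.0 CPM against 39.6 and 28.2), a transcription factor that marks injured sensory neurons. The part of these values in the Cckbr level was not tested.

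The change after sciatic injury (SNA_NAC against Sham_H2O2) minus that after dorsal column injury (DCA against LAM) was tested as 1 interaction term. It was positive and passed for 2 of the 7 receptors, beside 0.318% of all genes. The difference was 1.55 on the log2 scale for Gpr151 (SE 0.257, edgeR adjusted p = 0.0112) and 1.26 for Npy1r (SE 0.21, adjusted p = 0.0112). Cckbr had 1.07 (SE 0.95, adjusted p = 0.606), and 3.24 without DCA replicate 1 (adjusted p = 0.171). The Gpr151 call was lost without LAM replicate 3 (adjusted p = 0.0634) and that of Npy1r without LAM replicate 2 (0.0538). Agent and injury differed together in this term too, and Sham_H2O2 is shared with the comparison from which Gpr151 was chosen.

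N-acetyl-cysteine against saline after sciatic injury, SNA_NAC against SNA_Saline, gave no call among the 7 receptors (edgeR adjusted p = 1 for each) or among all genes (0%, with 314 at an unadjusted p under 0.05 and 8 features by limma on FPKM). SNA_Saline is shared with the comparison from which Cckbr was chosen. The fold intervals were 0.808 to 1.26 for Gpr151, 0.515 to 1.54 for Cckbr and 0.960 to 1.47 for Npy1r. All 3 SNA_NAC samples had more Npy1r than all SNA_Saline samples, a separation seen in the higher direction for 9.24% of genes.

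The controls of the nerve and spinal operations, Sham_Saline against LAM, differed in Gpr151. It was 2.92-fold higher in Sham_Saline (95% interval 2.22 to 3.84, edgeR adjusted p = 0.00148), 1 of 7 receptors beside 0.0509% of all genes called higher. That background is not firm: in both directions 11 genes were called, 6 with the replicate block, 5009 without Sham_Saline replicate 1 and 1141 by DESeq2. Fitting only these 2 groups ended the call (adjusted p = 0.171). The muscle markers summed to 6.31 to 1190 CPM in Sham_Saline and 40.5 to 273 CPM in LAM, and their part in the result was not tested. Cckbr was 4.13-fold higher (1.52 to 11.2) without overlap of samples, as for 16.4% of genes in that direction, at an adjusted p of 0.104. It passed without Sham_Saline replicate 1 (0.027) and by DESeq2 (0.0399). Sham_Saline is shared with both comparisons used to choose Cckbr and Gpr151.

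**Figure D2:**
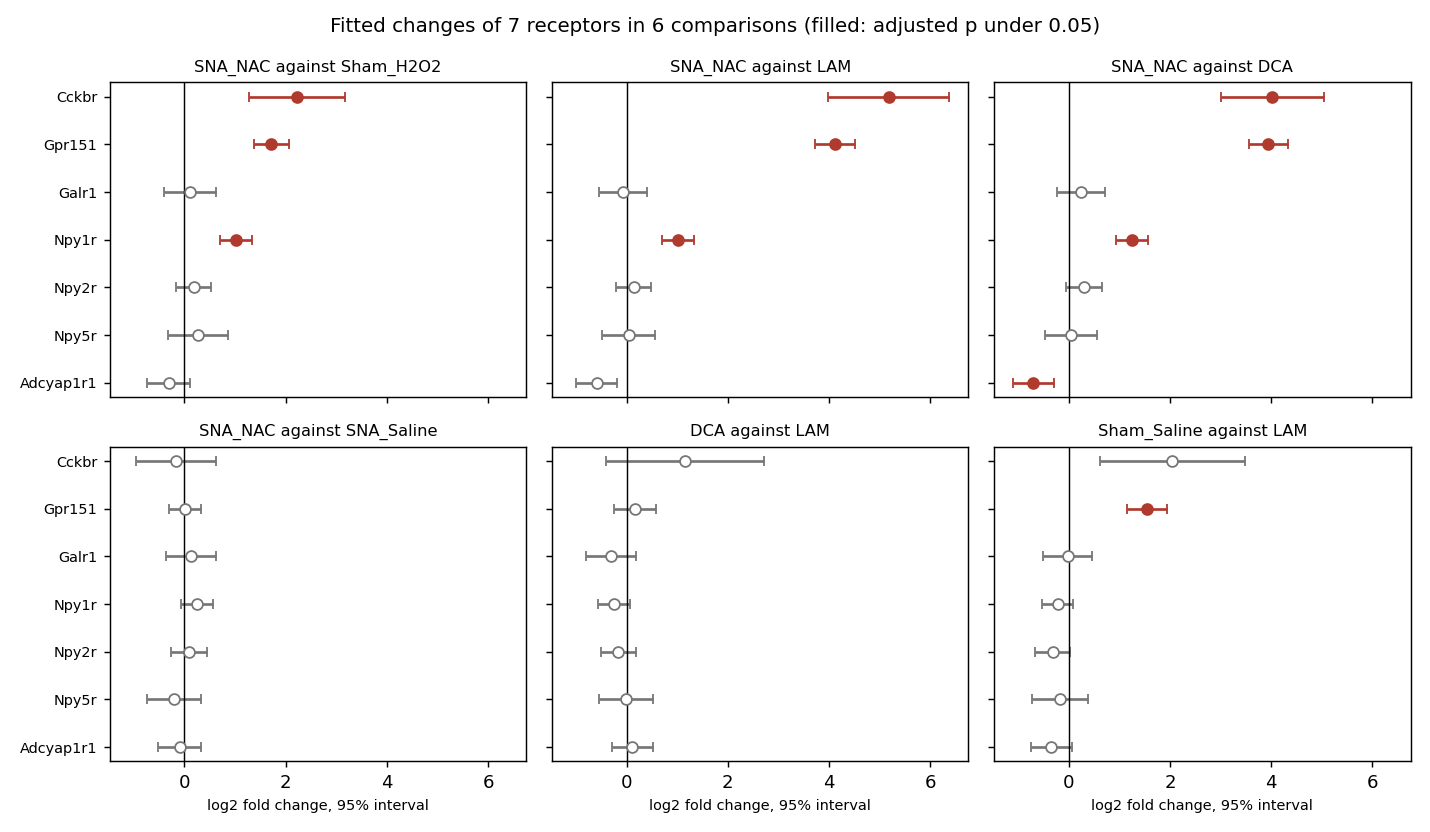
Fitted log2 fold change of 7 receptors (x axis, log2 scale) in 6 comparisons, with 95% intervals; filled points have an edgeR adjusted p under 0.05. Cckbr, Gpr151 and Npy1r lie right of 0 in the 3 upper panels, Adcyap1r1 is filled only against DCA, and no point is filled in SNA_NAC against SNA_Saline or in DCA against LAM.

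The ligands of these receptors were read from the same libraries. Gal, the galanin precursor, Npy, the neuropeptide Y precursor, and Adcyap1, the PACAP precursor, were in the count table. Gal had 8.28 ± 0.997 CPM in LAM, 9.54 ± 2.68 in DCA, 17.5 ± 5.70 in Sham_Saline, 16.8 ± 4.11 in Sham_H2O2, 40.0 ± 5.06 in SNA_Saline and 35.2 ± 3.84 in SNA_NAC (SD, n = 3 each). Npy had 0.445 ± 0.246 CPM in LAM and 1.65 ± 0.913 in Sham_H2O2, against 10.4 ± 1.30 in SNA_Saline and 8.00 ± 1.16 in SNA_NAC. Adcyap1 was the most abundant, with 100.5 ± 4.51 CPM in LAM, 151.8 ± 22.4 in Sham_H2O2 and 357.9 ± 27.6 in SNA_NAC. For all 3 ligands the samples with sciatic injury lay above every other sample, a separation whose share among all genes was not counted.

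In SNA_NAC against Sham_H2O2 all 3 ligands rose by edgeR: Adcyap1 2.36-fold (adjusted p = 0.000306), Npy 5.18-fold (0.0132) and Gal 2.07-fold (0.0471). They stood beside different receptor values. Npy and Npy1r both rose, Gal rose with Galr1 not past the threshold, and Adcyap1 rose while Adcyap1r1 had a log2 difference of -0.31 (adjusted p = 0.699). Of the 3, the interaction of sciatic minus dorsal column injury passed for Adcyap1 (1.40, adjusted p = 0.0106), and it did not for Npy (2.28, adjusted p = 0.382) or Gal (0.83, adjusted p = 0.501). Cck, the ligand of Cckbr, was found only in the FPKM table, at 0 to 0.476 FPKM, and Vip, which also binds PACAP receptors, at 0 to 0.346 FPKM. Spx, a galanin receptor ligand, was not found in either table.

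**Figure D3:**
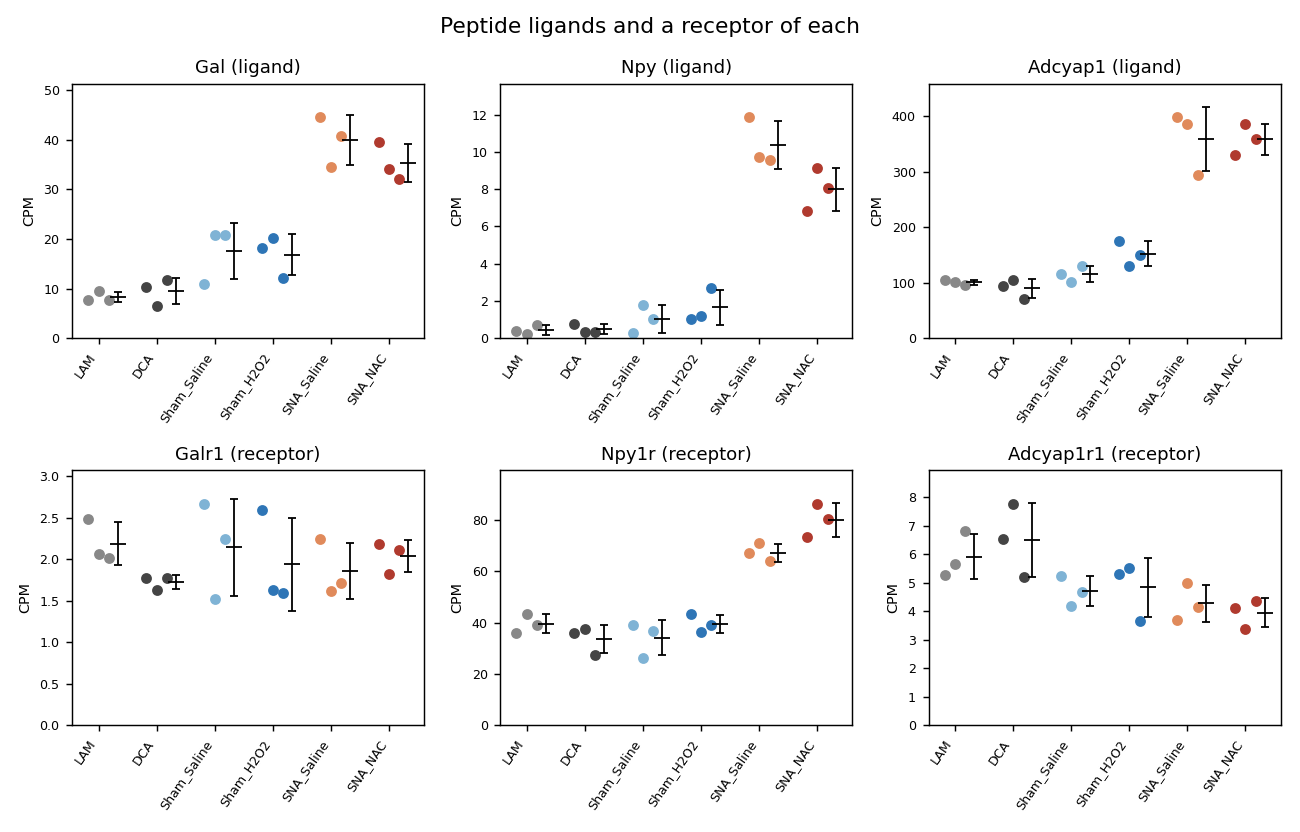
Ligand (upper) and receptor (lower) transcripts in CPM, 1 dot per sample, with the group mean and SD (n = 3) beside each group of dots. Gal, Npy and Adcyap1 were highest in both sciatic injury groups; of the receptors below them only Npy1r shows that separation.

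Of 28 peptide ligands listed, 13 were in the count table. In SNA_NAC against Sham_H2O2 3 of the 13 rose and 0 fell, where 1% of all genes were called higher, with a median log2 fold change of -0.13 beside -0.0006 for all genes. Against LAM and against DCA the count was also 3 higher and 0 lower, beside 2.81% and 3.48% of all genes called higher, and the 3 were Gal, Npy and Adcyap1 each time. In SNA_Saline against Sham_Saline 4 rose, where 2.16% of all genes were called higher. The 4 were those 3 and Nts, the neurotensin precursor (29.9 ± 3.67 against 12.6 ± 2.07 CPM, edgeR adjusted p = 0.0258).

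Of 54 other peptide receptors and accessory proteins listed, 31 were in the count table. Mchr1, the receptor for melanin-concentrating hormone, rose in SNA_NAC against Sham_H2O2 (3.03-fold, edgeR adjusted p = 0.000241) and was the only 1 of the 31 called there, beside 1.13% of all genes. It had 10.1 ± 0.498 CPM in SNA_NAC, 10.7 ± 1.35 in SNA_Saline, 3.19 ± 0.892 in Sham_H2O2 and 3.49 ± 0.216 in LAM. Its interaction term was 1.46 (edgeR adjusted p = 0.0205). Against LAM 3 of 31 passed, beside 3.61% of all genes in either direction: 2 rose, Mchr1 and Avpr1a, a vasopressin receptor (3.18-fold, adjusted p = 0.000897), and 1 fell, the prokineticin receptor Prokr1 (17.6 ± 0.783 against 27.7 ± 0.904 CPM, adjusted p = 0.0179). Against DCA 4 of 31 passed, beside 4.53% of all genes: 3 rose, with Prokr2, the second prokineticin receptor (2.12-fold, adjusted p = 0.0105), as the third, and Prokr1 fell. In SNA_Saline against Sham_Saline 2 of 31 rose, beside 2.16% of all genes, Mchr1 and Qrfpr, the receptor for the peptide QRFP (2.47-fold, adjusted p = 0.0409).

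The signalling proteins below the receptors were listed too. Of 46 G proteins, adenylyl cyclases, arrestins and related effectors listed, 45 were in the count table, and 0 passed by edgeR in SNA_NAC against Sham_H2O2, where 1.13% of all genes were called in either direction, or in SNA_Saline against Sham_Saline, where 2.73% were. At an unadjusted p under 0.05 the counts were 4 and 11 of 45, the former beside 1455 of all 15730 genes. For the latter the number among all genes was not counted, so the 11 cannot be set against a background. In SNA_NAC against LAM and against DCA 1 of 45 passed, beside 3.61% and 4.53% of all genes, which is near the background. It was Arrb1, β-arrestin-1, which ends receptor signalling. It had 400.5 ± 38.4 CPM in SNA_NAC, above 229.4 ± 13.3 in LAM (edgeR adjusted p = 0.0053) and 272.1 ± 6.88 in DCA (adjusted p = 0.0467).

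Likeness of pattern was measured by Pearson's r of log2 CPM over the 18 samples against 12989 genes with a mean count of at least 50. The samples share library preparation and lanes, and the values are a description. The genes most like Cckbr were Sprr1a (r = 0.98), Pvr, a nectin-like adhesion receptor (0.968), Gpr151 (0.966), Npy (0.965) and Tmem88b (0.956). Those most like Gpr151 were Tmem88b (0.992), Atf3 (0.98), Fst, the activin-binding protein follistatin (0.979), Sema6a, a transmembrane semaphorin (0.978), and Igfbp3, which binds insulin-like growth factors (0.974). Sprr1a had 0.947 ± 0.650 CPM in LAM, 5.86 ± 1.40 in Sham_H2O2 and 17.4 ± 3.63 in SNA_NAC. Atf3 had 13.8 ± 2.64 CPM in LAM, 30.9 ± 7.69 in DCA, 98.8 ± 20.7 in Sham_H2O2 and 447.3 ± 33 in SNA_NAC. Among the receptors, Cckbr had r = 0.822 with Npy1r and -0.751 with Adcyap1r1, and Gpr151 had 0.829 with Npy1r. With the group means removed, Cckbr and Gpr151 had r = 0.401, and Cckbr and Npy1r 0.0942.

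**Figure D4:**
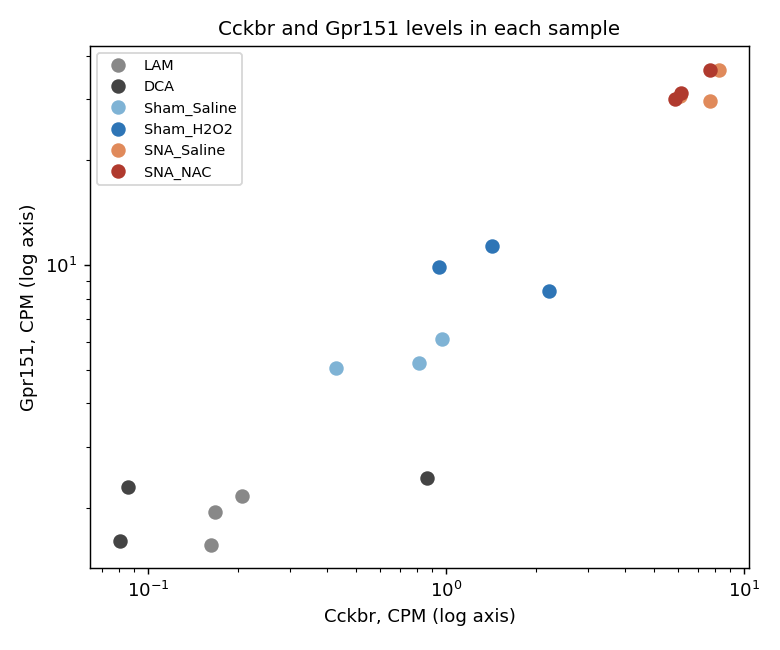
Cckbr (x) against Gpr151 (y) in CPM, both on log axes, 1 point per sample, coloured by group. The 6 sciatic injury samples lie apart at the upper right, the sham samples between, and the LAM and DCA samples at the lower left, with DCA replicate 1 at a higher Cckbr level (0.867 CPM) than its group.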

How the data were processed

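RNA of 18 samples, made with a stranded mRNA kit, was sequenced from one end in 3 lanes, per the labels' protocols. The authors deposited whole-number counts per gene, whose lowest mean over samples is 10.1, and FPKM values. The submitters' processing notes name TopHat2 2.0.12, Bowtie2 2.2.3, SAMtools 0.1.19, HTSeq 0.6.0, edgeR 3.8.6, limma 3.22.7, R 3.1.1, FastQC 0.10.1 and the build mm10, without their roles. Whether counting used strand is not given in the sources used here, so reads of overlapping genes cannot be assigned with certainty. Columns were matched to samples by name, and "Sham_H202" in the titles was read as Sham_H2O2.

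The test of the counts was edgeR 4.0.16 (glmQLFit and glmQLFTest, under R 4.3.3) after TMM and filterByExpr, which kept all 15730 genes, with all 6 groups in 1 fit and Benjamini-Hochberg adjustment over all genes. SE was computed as the size of the log2 fold change over the square root of F. For some genes of low count, such as Npy5r, the test's p was larger than this SE gives, so their intervals are too narrow. The common biological coefficient of variation was 17.4%. CPM is scaled by TMM, and a prior count of 2 entered log2 CPM. Galr2 was tested with limma 3.58.1 on log2(FPKM + 0.1) over 45904 features, a scale that understates changes of low genes, and, added after the data were seen, with edgeR on reads recovered from the FPKM steps. These came out whole to within 0.05 for Galr2 in all 18 samples. Alternatives were DESeq2 1.42.0, a minimum of 10 counts in every sample, only the groups of a comparison, a replicate block, offsets for GC share and length (15648 genes had a value), limma on FPKM, an adjusted p under 0.10 and leaving out each sample. The methods were tested on simulated data. Figures were drawn with matplotlib 3.10.9.

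The members and lists were chosen with earlier results of these data known. The named genes are all 8 receptors, their direct ligands, up to 6 genes per list and comparison with an adjusted p under 0.05, smallest first, and the 5 genes most like Cckbr and Gpr151. Marker lists for neutrophils and red cells, fibroblasts and endothelium, and neuron classes were also summed: they ran from 234 to 688, 717 to 1230 and 4890 to 6430 CPM.

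Replicate numbers equal the lane numbers in the labels in all 18 samples, so a number marks a shared lane. Correlations of same-numbered samples' deviations from their group means ran from -0.647 to 0.555, and the mice differ. The fit has no block, and the block was run as an alternative. No replicate pair differed by counting noise alone (chi-square per degree of freedom at least 4.11). P-values measure the spread between these samples, which may be in part technical, and intervals on reads without molecular identifiers are no count of molecules.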

Additional observations from a re-analysis of the deposited data

Results flagged for a closer look

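For 2 receptors the change in SNA_NAC against Sham_H2O2 differed from the change in DCA against LAM in a test of the difference itself. Gpr151 was higher by 1.72 on the log2 scale in SNA_NAC against Sham_H2O2 and differed by 0.17 in DCA against LAM, a difference of 1.55 (edgeR adjusted p = 0.0112, 0.0634 without LAM replicate 3). Npy1r was higher by 1.02 in the first comparison and differed by -0.24 in the second, a difference of 1.26 (edgeR adjusted p = 0.0112, 0.0538 without LAM replicate 2). The Npy1r mean was 33.6 ± 5.56 CPM in DCA and 39.6 ± 3.63 CPM in LAM (SD, n = 3 each), which did not pass its own test. SNA_NAC and Sham_H2O2 differ in agent as well as injury, so agent and injury cannot be told apart in these values. Sham_H2O2 is also shared with the comparison from which Gpr151 was chosen.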

How the results depend on the processing

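Over 859 fits of the 7 receptors under alternatives, 17 lost a call, 6 gained 1 and 32 changed sign, none of these 32 called in either fit. Gpr151 and Npy1r kept their calls in SNA_NAC against Sham_H2O2, LAM and DCA under every alternative run, with adjusted p up to 0.00665 and 0.0175 against Sham_H2O2. Cckbr kept its calls against LAM and DCA. The Cckbr interaction term passed in limma on log2(FPKM + 1) (adjusted p = 0.0387). The log2 ratio of its highest to lowest group mean was 5.36, and 5.27 to 6.47 with 1 sample left out (highest without DCA replicate 1). The causes were not tested.

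Counts of genes called moved as follows. With GC and length offsets, SNA_Saline against Sham_Saline gave 1171 in place of 430, SNA_NAC gave 596 in place of 178 against Sham_H2O2, 1596 in place of 568 against LAM and 1789 in place of 712 against DCA, Sham_Saline against LAM 26 in place of 11, and the interaction 190 in place of 52. The replicate block with these offsets gave 1013, 543, 1505, 1698, 23 and 166 in that order, and the block alone gave 6 for Sham_Saline against LAM. Of the receptors' calls the block ended that of Adcyap1r1 against DCA (adjusted p = 0.0766) and no other. DESeq2 gave 863 for SNA_Saline against Sham_Saline, 4 in place of 0 for Sham_H2O2 against Sham_Saline, 281 for SNA_NAC against Sham_H2O2, 1100 against DCA, 2 in place of 0 for DCA against LAM, 1141 for Sham_Saline against LAM and 129 for the interaction. With only the groups compared, SNA_Saline against Sham_Saline gave 65, SNA_NAC 71 against Sham_H2O2 and 2474 against LAM, and Sham_Saline against LAM 1. An adjusted p under 0.10 gave 822 for SNA_Saline against Sham_Saline, 1191 for SNA_NAC against DCA and 79 for the interaction. A minimum of 10 counts gave 4 for Sham_Saline against LAM, limma on log2(FPKM + 1) 4 and on log2(FPKM + 0.1) 5, and both limma fits gave 8 in place of 0 for SNA_NAC against SNA_Saline.

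Leaving out 1 sample gave 174 to 2548 for SNA_Saline against Sham_Saline (lowest without SNA_Saline replicate 1, highest without Sham_Saline replicate 1), 88 to 131 for SNA_NAC against Sham_H2O2, 275 to 327 against LAM, 353 to 582 against DCA, 4 to 5009 for Sham_Saline against LAM (highest without Sham_Saline replicate 1) and 18 to 61 for the interaction. The lowest counts for SNA_NAC against Sham_H2O2 and DCA came without SNA_NAC replicate 2, and those of the last 2 and against LAM without LAM replicate 3.

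Among uncalled log2 fold changes that changed sign, leaving out 1 sample gave -0.044 to 0.34 for Galr1 in SNA_NAC against Sham_H2O2, -0.054 to 0.20 for Npy5r against LAM and -0.075 to 0.21 against DCA. Against SNA_Saline it gave -0.071 to 0.11 for Gpr151, -0.040 to 0.23 for Npy2r and -0.19 to 0.013 for Adcyap1r1. In DCA against LAM it gave -1.03 to 1.70 for Cckbr, -0.16 to 0.12 for Npy5r and -0.024 to 0.25 for Adcyap1r1, and in Sham_Saline against LAM -0.22 to 0.20 for Galr1. Npy5r against DCA was -0.042 with the offsets and -0.044 with block and offsets. Npy5r in DCA against LAM was 0.0014 with the block, 0.15 with offsets, 0.17 with both, and 0.018 and 0.052 in limma with pseudocounts of 1 and 0.1. In Sham_Saline against LAM, Galr1 was 0.0041 with a minimum of 10 counts, Npy1r 0.0093 with offsets and 0.0093 with block and offsets, and Npy5r 0.13 and 0.13. Depth limits Galr2 (0 to 23 reads), Npy5r (4 to 26 counts) and Cckbr in LAM and DCA most.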
